A study of Mus musculus with 2 samples.

Results

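The genes described here are 36 members of the folding and stress machinery of the endoplasmic reticulum (ER), out of 28205 genes counted in single mouse bone marrow cells. They were taken by name from the count tables, as a list put together with earlier results of these data in view, Serp1 and Surf4 in reporter cells among them. All 36 had counts in both libraries. Each gene was read in kept cells, meaning droplet barcodes with at least 500 unique molecular identifiers (UMIs, tags that count captured transcripts) and at most 20% mitochondrial UMIs. Their summed share and their levels in cells split by S phase, G2/M, Procr, granulocyte and GFP transcripts are given, with 2 further splits by immediate early genes and by the folding chaperones themselves.

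The libraries came from 1 pool of cells encapsulated on the inDrops droplet platform. It held GFP+ cells of mice that were Mds1-GFP/+ and carried Flt3-Cre, sorted by GFP and exclusion of the dye DAPI alone, and SLAM LT-HSCs (long-term hematopoietic stem cells) from wild-type mice, sorted as DAPI-Lin-cKit+Sca+CD48-CD150+, all from lineage-depleted bone marrow. GFP sits in a cassette between loxP sites, and Cre is driven from Flt3, so a cell in which Cre has acted would lose the reporter. The pool was sequenced as 2 aliquots, so n = 1 and no difference below has a replicate check or a p-value; intervals are 95% and cover counting error only.

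Aliquot 1 gave 1574 kept cells with a median of 946.5 UMIs and aliquot 2 gave 1828 with a median of 2071.5, together 5668067 UMIs. Reporter cells, with at least 1 GFP UMI, numbered 71, while the sample records state 46 GFP cells. Another 14 barcodes with a GFP UMI were not kept. The genotype and sort of a cell are not recorded in its barcode, and whether each reporter cell came from the GFP+ sort was not tested. In total 461 barcodes occurred in both libraries, and 431 kept cells carried one. All 10 LT-HSC markers (Procr, Mecom, Hlf and others) had UMIs in reporter and in other cells, at a summed 2423 and 2573 CPM (counts scaled so that all counts of a cell set, other than those of the genes that define the set, total 1000000).

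The ER is where secreted and membrane proteins enter through the Sec61 channel, lose their signal peptides, and are folded by chaperones such as BiP (Hspa5), by the lectins Calr and Canx, and by protein disulphide isomerases. When unfolded protein accumulates, the sensors Ern1, Eif2ak3 and Atf6 switch on the unfolded protein response, whose transcription factors Xbp1, Atf4 and Ddit3 and the cleaved form of Atf6 raise chaperone, degradation and stress genes. Xbp1 and Atf6 are controlled largely by mRNA splicing and protein cleavage, which gene counts do not show. In blood formation this response is known for its part in secretory cells and in the survival of stem cells under protein stress.

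Chaperone promoters are known for the ER stress response element (ERSE), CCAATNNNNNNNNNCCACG, and were searched in the 250 bases before the gene start in the RefSeq promoter table of GRCm38.p6, on both strands. 31 of the 36 genes matched an entry, while Atf6, Sec61a1, Ssr2, Manf and Hyou1 did not. The ERSE letters occurred in 8 of the 31, against 35 of 27025 genes in the table (0.130%). With at most 1 letter changed they occurred in 13 of the 31, against 1.51% of genes. A shorter form, ERSE-II (ATTGGNCCACG), was found in Herpud1 and in 0.0370% of genes. TGACGTG, a core recognised by Xbp1 and Atf6, was found in Hspa5 alone of the members (1.85% of genes), and TGATGNAA, a core bound by Atf4, in Herpud1 alone (3.91% of genes). The ERSE sites are shown because the ERSE is the longest of the searched elements and was found in more members than any other. Pdia3, Pdia4, P4hb, Dnajb11 and Sdf2l1 had entries without it. The ERSE-II site of Herpud1 is listed last. Each site is written 5′ to 3′ on the strand of its gene, with the fixed letters in capitals. Where the capitals read CGTGG first, the element lies on the other strand. A match is a string of letters and not a measured site.
Hspa5, chr2:34772017-34772051, plus strand: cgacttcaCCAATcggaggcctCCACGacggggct
Hsp90b1 distal, chr10:86705630-86705664, minus strand: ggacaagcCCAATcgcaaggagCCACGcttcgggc
Hsp90b1 proximal, chr10:86705525-86705559, minus strand: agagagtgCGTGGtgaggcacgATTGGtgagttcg
Calr, chr8:84847067-84847101, minus strand: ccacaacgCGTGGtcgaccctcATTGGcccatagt
Canx, chr11:50325792-50325826, minus strand: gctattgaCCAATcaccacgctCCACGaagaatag
Pdia6, chr12:17266483-17266517, plus strand: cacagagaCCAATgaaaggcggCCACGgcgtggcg
Dnajc3, chr14:118937819-118937853, plus strand: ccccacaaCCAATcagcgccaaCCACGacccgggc
Creld2, chr15:88819512-88819546, plus strand: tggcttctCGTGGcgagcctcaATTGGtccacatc
Syvn1, chr19:6046524-6046558, plus strand: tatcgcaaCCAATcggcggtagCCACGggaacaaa
Herpud1 (ERSE-II), chr8:94386369-94386395, plus strand: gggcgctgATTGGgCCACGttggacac

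The 36 genes gave 32320 UMIs, 5702 CPM (5640 to 5765) or 0.570% of the UMIs of kept cells, with 5918 CPM in aliquot 1 and 5614 in aliquot 2. Barcodes with under 200 UMIs stood at 3562 CPM (2922 to 4301) in aliquot 1 and 5044 (4853 to 5239) in aliquot 2. They were taken as free RNA, but whether they also hold shallow or damaged cells was not tested. In aliquot 2 the cells thus lay little above these barcodes for the summed list. After each cell was thinned to 500 UMIs, it held a median of 2 UMIs from the 36 genes, with 5 at the 90th percentile and 20 at most, and 8.29% of cells held none.

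Spcs2, a subunit of signal peptidase, led with 697 CPM (676 to 719). It was followed by the lectin chaperone Calr at 650, BiP (Hspa5) at 481, the HSP90 family chaperone Hsp90b1 at 298 and the membrane lectin Canx at 296. These 5 genes gave 42.5% of the list's UMIs. UMIs count tagged transcript ends, so no level was divided by gene length, though capture can differ between genes. Sec61g was the lowest at 4.06 CPM (2.57 to 6.09), far under the other Sec61 subunits Sec61b at 112 and Sec61a1 at 92.4. Levels such as those of Sec61g and Spcs2 are uncertain, because the sources used here do not say how reads shared by near-identical gene copies were counted.

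By role, the 10 translocon and signal peptidase genes held 33.4% of the list's UMIs, the 3 other lumenal chaperones 21.8%, the 8 genes of the BiP system 19.5% and the 4 disulphide isomerases 12.3%. The 3 sensors were scarce, Atf6 at 26.8 CPM, Ern1 at 24.7 and Eif2ak3 at 17.5, and gave 1.21%. Of the transcription factors, Xbp1 stood at 109 CPM and Atf4 at 91.9, while Ddit3, which promotes death under lasting stress, stood at 15.7 (12.6 to 19.3). 2 overlapping gene models on chromosome 10 carry the name Ddit3, so its counts are uncertain. Between aliquots all 36 levels lay within 2-fold, from 0.672 times in aliquot 2 over aliquot 1 for Pdia4 to 1.73 times for Ddit3.

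**Figure D1:**
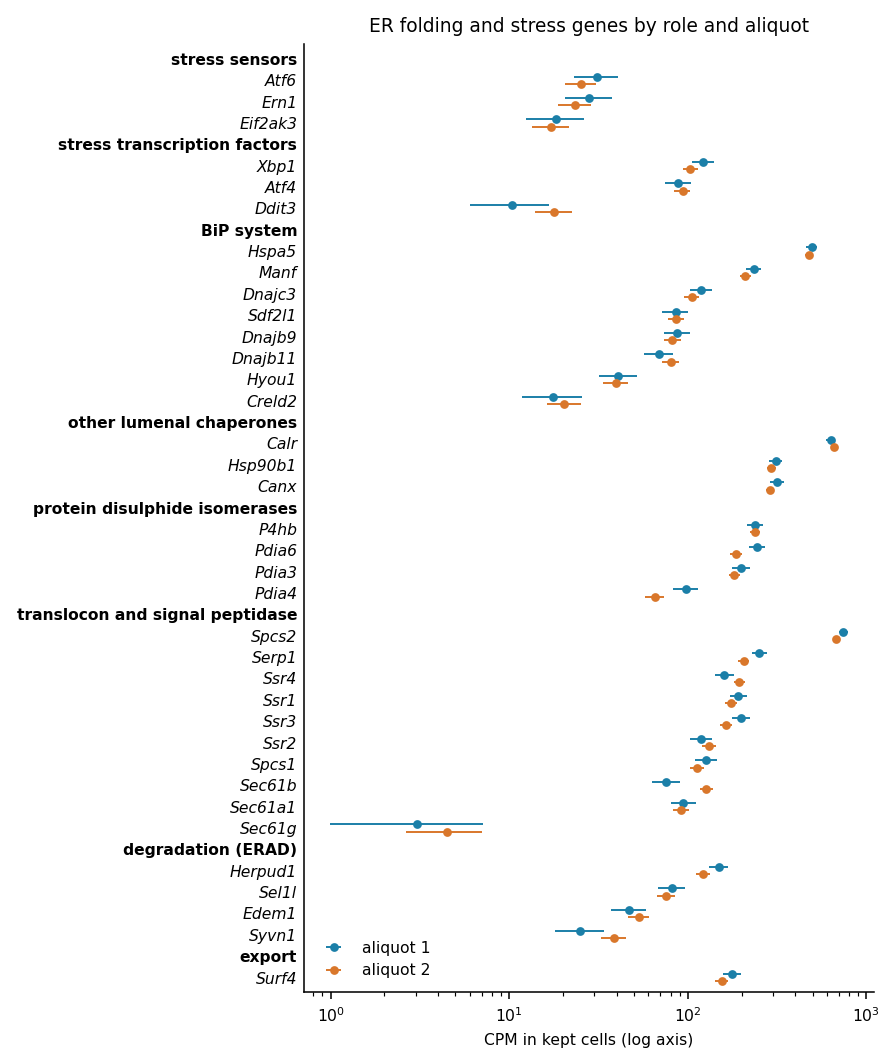
CPM of each of the 36 genes in kept cells of aliquot 1 and aliquot 2 on a log axis, grouped by role, with 95% Poisson intervals as bars. Spcs2, Calr and Hspa5 lie highest, the sensors and Ddit3 lie under 35 CPM in both aliquots, and Sec61g is lowest.

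Cells expressing the S phase program had higher levels of many folding genes, while 3 of the 6 stress-signalling genes, Ddit3, Atf6 and Ern1, were lower by the size rule given below. The S phase list holds 25 genes of DNA replication such as Mcm2 to Mcm7 and Pcna. The 700 cells with at least 3 of their 500 thinned UMIs from it were set against 1505 cells with 0, and a ratio is that of CPM, with the split genes left out. In each pair of levels the high set comes first. The list stood at 6669 CPM in S-high and 5186 in S-low cells, 1.29-fold (interval 1.251 to 1.319), with 6577 versus 5428 in the first aliquot and 6712 versus 5099 in the second. A gene was measured when the smaller cell set held, or by the level in the other set would hold, at least 20 of its UMIs. Of 35 measured members 23 were higher and 12 lower, with a median log2 ratio of 0.38 beside -0.05 over all 9116 genes measured. A member passed the size rule when it was at least 1.5-fold apart with the same direction in both aliquots: 7 were past it upward and 3 downward, where 28.8% of all genes were past it in either direction (13.7% higher, 15.1% lower). The members' share of 10 in 35 is thus close to the background. By its S-low level 1 of the 7, Creld2, was expected at 18.1 UMIs and was measured only because it was high. Over the 34 other measured members 22 were higher and the median was 0.30.

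Sdf2l1, a partner of the J protein Dnajb11 in the BiP cycle, differed most. Its level was 175 CPM in S-high and 28.9 in S-low cells of aliquot 1, and 178 against 37.5 in aliquot 2. That is 5.03-fold (3.89 to 6.57) on 253 and 78 UMIs, and 4.78-fold without the single cell that held most of its UMIs. The aliquots gave nearly the same levels on both sides. Without the cells expressing Mpo and Elane the log2 ratio was 2.20 beside 2.33 with them.

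The rest of the BiP system mostly moved the same way, with 7 of 8 genes higher. Manf, a small ER protein that binds BiP and is secreted under calcium loss, stood at 276 versus 185 CPM in the first aliquot and 329 versus 148 in the second, 1.98-fold (1.71 to 2.28). Creld2, another ER-resident stress protein, stood at 2.16-fold (1.30 to 3.65) on 39 and 28 UMIs, a value that follows in part from how it came to be measured. The J protein Dnajb11 was 1.80-fold higher (1.44 to 2.26) and the BiP exchange factor Hyou1 1.79-fold (1.29 to 2.49). Hspa5 itself was 1.39-fold higher (1.27 to 1.53), at 517 versus 453 CPM in the first aliquot and 625 versus 413 in the second, which is under 1.5-fold in the first aliquot and in all cells. The exception was Dnajb9, a J protein that is a classic Xbp1 target and holds Ern1 inactive, at 0.72 times (0.56 to 0.92).

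Among lectins and isomerases, Pdia3, the oxidoreductase that works with Calr and Canx, was 1.59-fold higher (1.37 to 1.86). Its log2 ratio, 0.67 here, ran from 0.10 to 0.75 over other settings. Pdia6, Hsp90b1, Calr, P4hb and Canx were between 1.31-fold and 1.50-fold higher with intervals above 1. Pdia4 was at 0.88 times (0.67 to 1.14). Of the measured translocon and signal peptidase genes 8 of 9 were higher, from 1.08-fold for Spcs2 to 1.46-fold for Ssr4, and none was past the size rule. Edem1, a lectin that hands misfolded glycoproteins to degradation, was 1.85-fold higher (1.38 to 2.48), whereas the ubiquitin ligase Syvn1 and its partner Sel1l were at 0.71 (0.48 to 1.03) and 0.79 (0.61 to 1.03).

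The 3 sensors and the 3 transcription factors all had ratios under 1 over both aliquots together, and 3 of the 6 were past the size rule. Ddit3 was at 0.47 times (0.22 to 0.90), with 4.38 versus 17.0 CPM in the first aliquot and 10.3 versus 18.4 in the second, on 12 and 40 UMIs. Atf6 was at 0.59 times (0.37 to 0.93), though nearly equal in aliquot 1 (32.9 against 34.0 CPM). Ern1 was at 0.63 (0.38 to 1.01) and Xbp1 at 0.80 (0.65 to 0.98). Intervals of Eif2ak3 (0.94) and Atf4 (0.88) included 1. Both were lower in the first aliquot and slightly higher in the second, with log2 ratios of -0.90 and 0.21 for Eif2ak3 and of -0.72 and 0.03 for Atf4.

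Other measures moved with the S phase split. S-high cells were deeper, with a median of 1669.5 against 1250 UMIs. The 10 LT-HSC markers summed to 1646 against 3112 CPM, lower for all 10. The 14 immediate early genes, the fast transcripts of stimulated or dissociated cells, were all lower, with a median log2 ratio of -1.13. The 9 granulocyte markers summed to 2481 against 1762 CPM, with 4031 versus 1788 in the first aliquot and 1753 versus 1752 in the second. In cells with no G2/M UMI the median of the members was 0.15 in place of 0.38. The part of depth and of stem cell identity in the result was not tested. The ratios of Sdf2l1 and Manf were computed again without granulocyte-gene cells and in cells with no immediate early UMI, and were 2.20 and 2.02 for Sdf2l1 and 0.93 and 0.89 for Manf on the log2 scale.

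**Figure D2:**
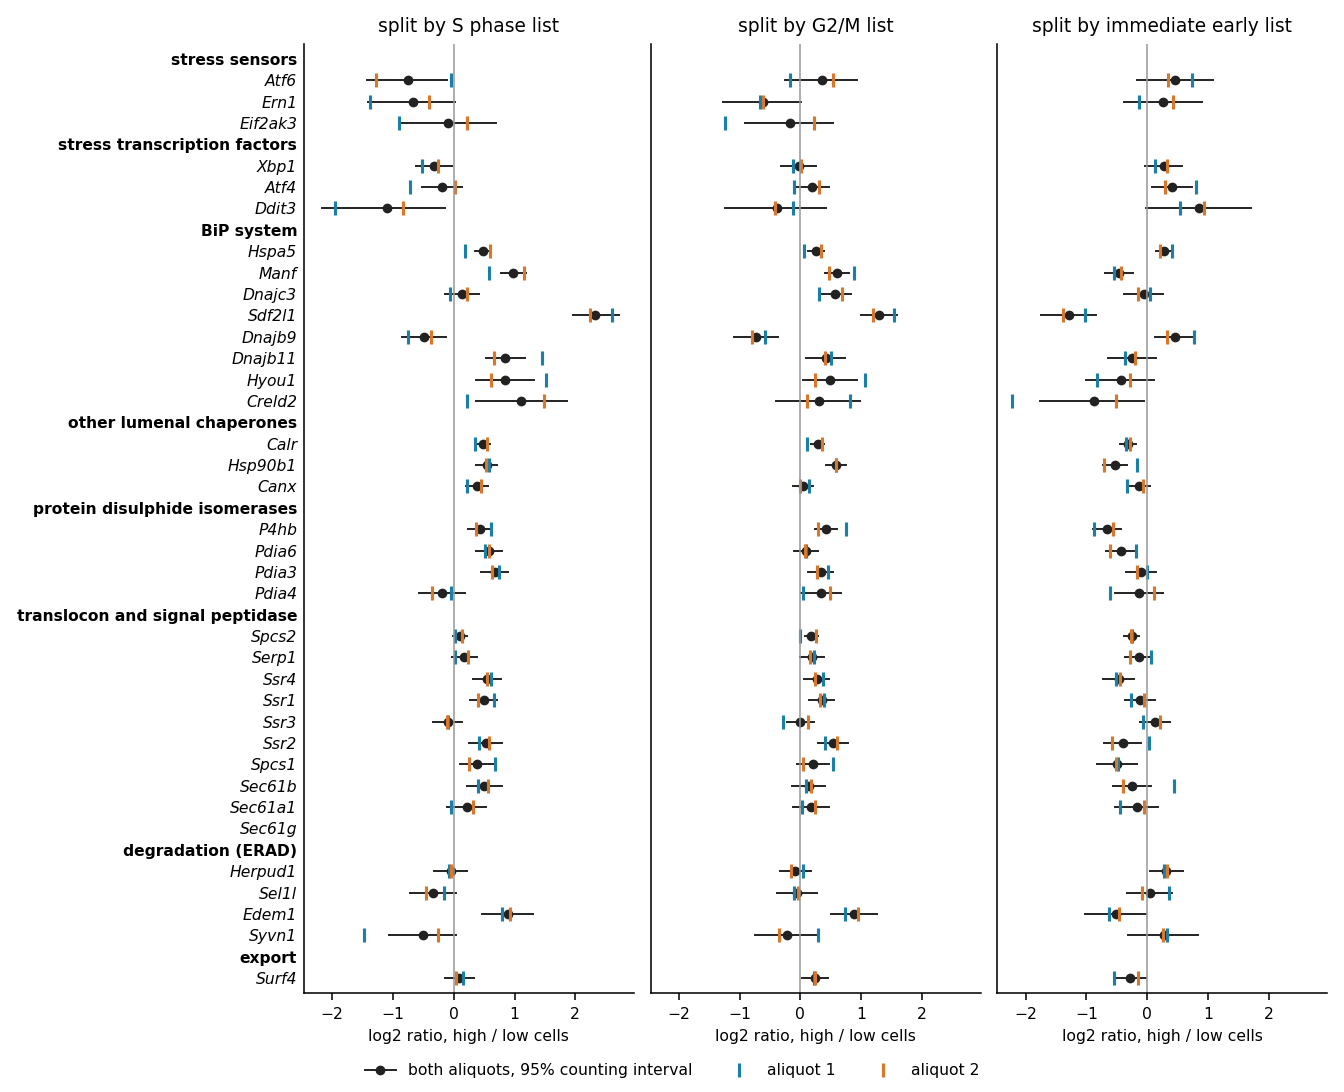
log2 ratio of CPM in high over low cells for each measured gene, by role, for splits on the S phase, G2/M and immediate early lists, with 95% counting intervals as bars and each aliquot as a tick. Sdf2l1 is farthest right in the S phase and G2/M panels (2.33 and 1.29) and farthest left in the immediate early panel (-1.28), while sensors and transcription factors lie left of 0 in the first and right of 0 in the last, several with intervals that reach 0.

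In the G2/M split, on 26 mitotic genes such as Top2a and Mki67, 765 cells with at least 2 thinned UMIs were set against 1826 with 0. The list stood at 6415 against 5339 CPM, 1.20-fold (1.17 to 1.23). Of 35 measured members 26 were higher, with a median log2 ratio of 0.24 beside -0.03 over all genes. Past the size rule were 4 higher and 2 lower, against 21.2% of all genes (9.93% higher, 11.2% lower). Sdf2l1 was 2.45-fold higher (2.00 to 3.01), Edem1 1.84-fold (1.41 to 2.40), Manf 1.52-fold (1.33 to 1.73) and Hsp90b1 1.50-fold (1.35 to 1.68). Without the 1 cell that held most UMIs of each gene, Manf and Hsp90b1 stood at 1.496-fold and 1.49-fold, just under the size rule. Dnajb9 was again lower, at 0.61 times (0.47 to 0.78), as was Ern1 at 0.65 (0.42 to 1.00). The granulocyte markers moved far more with this split, at 6584 against 353 CPM, and LT-HSC markers were at 1904 against 2956; their part in the result was not tested. Without the deepest 5% of cells 2 members were past the size rule in place of 6.

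Since S-high and G2/M-high cells overlap, cells were sorted into 4 sets by both lists. There were 922 cells with neither, 257 with S genes only, 274 with both and 209 with G2/M genes only. Sdf2l1 stood at 31.9 CPM (23.0 to 43.1) with neither, 111 (82.9 to 145) with S only, 247 (209 to 289) with both and 55.5 (33.9 to 85.7) with G2/M only. In aliquot 1 the order was 31.1, 115, 234 and 46.3, and in aliquot 2 it was 32.2, 109, 254 and 58.3. Its highest level was therefore in cells with both lists, in both aliquots, and intervals of the sets with neither and with G2/M only overlapped.

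Manf stood at 147 CPM with neither, 246 with S only, 349 with both and 186 with G2/M only. The aliquots differed with S only, at 166 and 279, and with G2/M only, at 278 and 157. S only thus lay above G2/M only in aliquot 2 and under it in aliquot 1. Hsp90b1 ran from 227 with neither to 297, 446 and 352, and Hspa5 from 422 to 520, 615 and 508, though its highest level in aliquot 1 was with G2/M only (579). Dnajb9 ran the other way, at 98.0 with neither (81.8 to 116), 58.5 with S only, 45.4 (30.2 to 65.6) with both and 74.9 with G2/M only. Xbp1 stood at 126, 81.4, 107 and 114, with overlapping intervals in all 4 sets. The summed list stood at 5135, 5939, 7285 and 5462 CPM. Median UMIs were 1216.5, 1519, 1895.5 and 1454 in the same order, so depth and level moved together; the part of depth was not tested here.

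**Figure D3:**
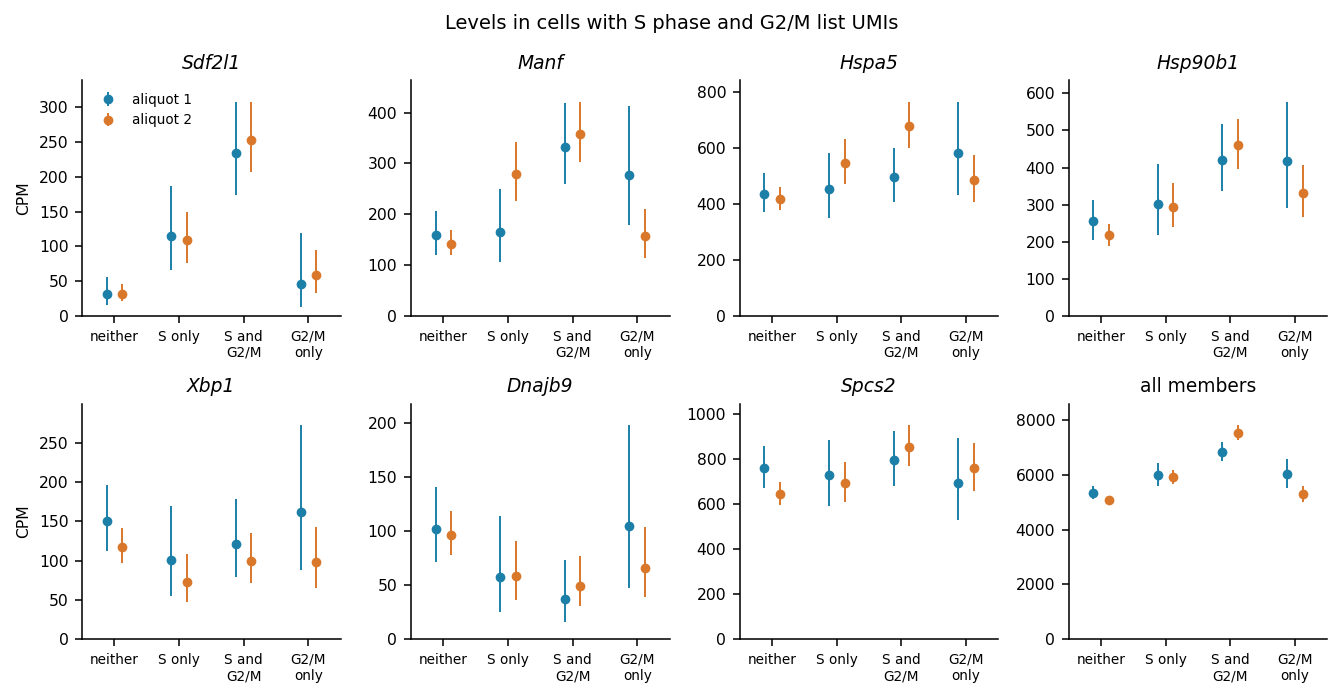
CPM of 7 genes and of all 36 together in cells with neither list, S genes only, both, or G2/M genes only, for each aliquot with 95% Poisson intervals. Sdf2l1, Hsp90b1 and the sum peak in cells with both lists in each aliquot, while Dnajb9 is lowest there.

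Genes of neighbouring pathways, from lists that like the members were drawn up with earlier results known, were read in the same S phase split. Of 24 measured genes of ER import and glycosylation 17 were higher and 3 were past the size rule upward, and none downward. These were Spcs3, another signal peptidase subunit, at 1.89-fold (1.59 to 2.25), and the oligosaccharyltransferase subunits Rpn1 at 1.88-fold (1.69 to 2.09) and Ddost at 1.59-fold (1.34 to 1.90). Of 29 other folding and degradation genes 18 were higher. Fkbp2, a prolyl isomerase of the ER, was 2.03-fold higher (1.55 to 2.66), and the retrieval receptor Kdelr2 1.75-fold (1.39 to 2.22). The protease Mbtps1, which cleaves Atf6, was at 0.61 times (0.49 to 0.77), and Edem2 at 0.64 (0.47 to 0.86).

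Targets of Atf4 divided. The enzymes of serine, one-carbon and asparagine synthesis were higher in S-high cells, Mthfd2 at 8.27-fold (4.42 to 16.8), Asns at 3.67-fold (1.75 to 8.22), Psat1 at 3.13-fold (2.53 to 3.88) and Shmt2 at 2.29-fold (1.76 to 3.004). Mthfd2 and Asns were expected at only 7.74 and 7.09 UMIs by their S-low level, so they were measured because they were high. The stress feedback genes were lower, Trib3 at 0.16 times (0.07 to 0.32), Ddit4 at 0.52 (0.37 to 0.72) and Ppp1r15a, which reverses the translation block, at 0.54 (0.41 to 0.71). Of 19 measured genes of this list 11 were higher and 8 lower. Cytosolic and mitochondrial chaperones were higher in 16 of 17, with the mitochondrial chaperonin Hspd1 at 2.09-fold (1.86 to 2.34) and Hsp90aa1 at 1.76-fold (1.63 to 1.89). Higher chaperone levels were therefore measured outside the ER too.

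The 8 members with an ERSE in the window and the 22 measured ones without were compared as a description. With the element the median log2 ratio in the S phase split was 0.48, with 7 of 8 higher, Syvn1 being the one lower. Without it the median was 0.10, with 12 of 22 higher. Sdf2l1, the member with the highest ratio, had an entry without the ERSE letters. The medians were 0.27 and 0.19 in the G2/M split and -0.10 and -0.24 in the Procr split. The order was the opposite in the immediate early split, at -0.22 with the element and -0.13 without. It was the opposite in the reporter split too, at 0.01 for 5 members with the element and 0.29 for 10 without. It was also the opposite in the granulocyte split, at 1.65 for 5 and 1.92 for 7. Most of these members in the granulocyte split, and Xbp1 and Herpud1 in the reporter split, were measured only because they were high. The order in the granulocyte and reporter splits therefore supports nothing. Creld2 in the S phase split, Syvn1 in the Procr split and Ddit3 in the immediate early split were also measured only because they were high.

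In the split by immediate early genes such as Fos, Jun and Egr1, most folding genes had ratios under 1. The 795 cells with at least 3 thinned UMIs were set against 1381 with 0. The list was lower, 5239 against 5954 CPM, or 0.88 times (0.85 to 0.91). Of 34 measured members 11 were higher and 23 lower, with a median log2 ratio of -0.16 beside 0.02 over all genes. Past the size rule were 1 higher and 3 lower, where 14.8% of genes were past it (7.37% higher, 7.4% lower). The 1 higher was Ddit3, which was expected at 12.7 UMIs and was measured only because it was high. Sdf2l1 was at 0.41 times (0.30 to 0.56), with 47.6 versus 96.9 CPM in the first aliquot and 42.2 versus 110 in the second. Creld2 was at 0.55 (0.30 to 0.96) and the isomerase P4hb at 0.64 (0.54 to 0.75).

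The 11 measured members with ratios above 1 were the transcription factors Xbp1, Atf4 and Ddit3, the sensors Atf6 and Ern1, and Hspa5, Dnajb9, Herpud1, Syvn1, Sel1l and the translocon gene Ssr3. Of these only Ddit3 was past the size rule, and 4 had an interval above 1. Ddit3 stood at 1.81-fold (0.99 to 3.28), on 23 and 27 UMIs and with an interval that reached 1. The 4 with an interval above 1 were Dnajb9 at 1.38-fold (1.09 to 1.73), Atf4 at 1.33-fold (1.06 to 1.68), Herpud1, an Atf4 and Xbp1 target that organises ER degradation, at 1.247-fold (1.03 to 1.51) and Hspa5 at 1.22-fold (1.10 to 1.34). Of the translocon and signal peptidase genes 8 of 9 had ratios under 1. Of the Atf4 targets Ppp1r15a was 4.21-fold (3.29 to 5.41) and Trib3 3.31-fold (2.14 to 5.18) higher, the second of them measured only because it was high. Psat1 was at 0.51 (0.39 to 0.66) and Mthfd2 at 0.35 (0.15 to 0.72). Hspa5 was thus higher in both the S phase and the immediate early split, whereas Sdf2l1, Manf, Calr and Hsp90b1 were higher in the first and lower in the second.

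The splits share cells. In immediate-early-high cells all 24 measured S phase genes and all 24 measured G2/M genes were lower, with median log2 ratios of -1.03 and -1.22, and all 10 LT-HSC markers were higher (3037 against 2295 CPM). In cells with no S phase UMI, the Sdf2l1 log2 ratio was -0.69 beside -1.28 in all cells, a ratio over 1.5 times nearer to 1. Only 2 members of the immediate early split passed the size rule when at least 50 UMIs per gene were asked.

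Cells with at least 1 thinned UMI of Procr, the endothelial protein C receptor that marks LT-HSCs, numbered 274 and were set against 3128 with 0. The list stood at 5343 against 5730 CPM, 0.93 times (0.89 to 0.97), but at 6043 versus 5909 in the first aliquot and 5033 versus 5657 in the second, so the aliquots disagreed. Of 29 measured members 10 were higher and 19 lower, with a median log2 ratio of -0.14 in all cells and 0.06 in aliquot 1 alone. Syvn1, 1 of the 10, was expected at 13.1 UMIs and was measured only because it was high. Without it 9 were higher and 19 lower, with a median of -0.17. Past the size rule were 1 higher and 2 lower, where 17.1% of genes were past it (8.23% higher, 8.92% lower). Dnajb11 was at 0.51 times (0.29 to 0.84) and Sdf2l1 at 0.51 (0.30 to 0.82), on 16 and 18 UMIs in Procr cells. Dnajb9, the 1 member past the rule upward, was at 1.51-fold (1.10 to 2.04) but at 1.24-fold without the 1 cell that held 9 of its 48 UMIs, which is under the size rule. Sel1l stood at 1.49-fold (1.07 to 2.04). Ddit3 had 16 UMIs in Procr cells, under the minimum of 20, at 40.6 against 13.8 CPM.

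Procr cells were low in cycling transcripts, with all 17 measured S phase genes and all 16 measured G2/M genes lower. Their 9 granulocyte markers summed to 350 against 2266 CPM. In cells with no G2/M UMI 1 member was past the size rule.

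Cells with Mpo and Elane, granule genes of neutrophil precursors, were few but carried the highest ER share. Only 11 cells held at least 2 thinned UMIs of the pair, 7 in aliquot 1 and 4 in aliquot 2, against 3383 with 0. The list stood at 17073 against 5599 CPM, 3.05-fold (2.83 to 3.28), with 13837 versus 5836 in the first aliquot and 18856 versus 5503 in the second. Per cell, the 36 genes made up between 0.404% and 2.21% of UMIs, with a median of 1.34%. In the 3383 other cells the median was 0.509% and the 95th percentile 1.07%. So 9 of the 11 cells lay above that percentile, and 1 lay under the median, a cell with 218 UMIs of mature neutrophil genes. The cell with the next most UMIs of those genes, 78, stood at 2.19%.

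**Figure D4:**
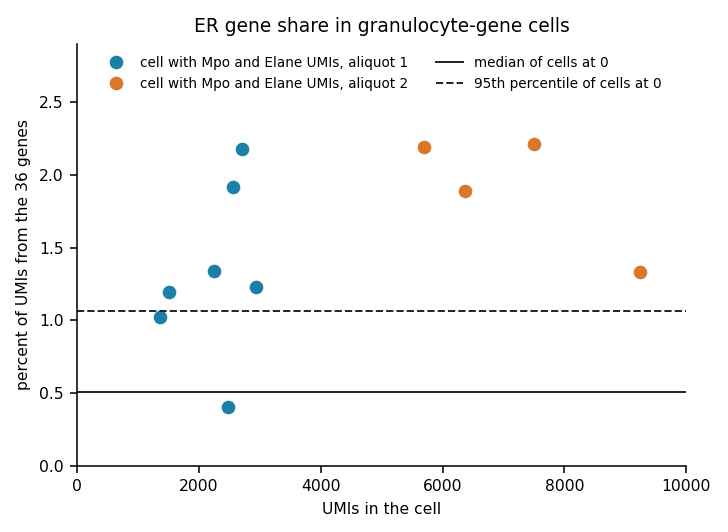
Percent of UMIs from the 36 genes in each of the 11 cells with Mpo and Elane UMIs, against the cell's UMIs and coloured by aliquot, with the median and 95th percentile of cells without them as lines. 9 of 11 points lie above the upper line (1.07%), 1 just under it and 1 under the median (0.509%).

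Over all 36 genes 32 were higher in these cells and 4 had no UMI there (Eif2ak3, Ddit3, Ern1 and Sec61g). In the smaller set 14 members reached 20 UMIs and 22 did not. Of the 14, 11 got there only through their high level in the 11 cells, so their direction was fixed by the minimum and counts over them support nothing. The other 3, Hspa5, Calr and Spcs2, were expected to reach 20 by their level in other cells. The background is wide here, since 65.8% of the 407 measured genes were past the size rule (41.3% higher, 24.6% lower) and their median log2 ratio was 0.43.

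Hspa5 stood at 1537 versus 484 CPM in the first aliquot and 2648 versus 457 in the second, 4.85-fold (3.93 to 5.93), and 10 of the 11 cells held a UMI of it. Calr was 3.15-fold higher (2.52 to 3.89) and Spcs2 2.45-fold (1.92 to 3.08). Sdf2l1 stood at 577 versus 80.2 CPM in the first aliquot and 1059 versus 79.2 in the second, 11.2-fold (7.84 to 15.5), from 39 UMIs in 7 cells with 14 in 1 of them, and 8.60-fold without that cell. Like Sdf2l1, the next 3 were measured only because they were high. Manf was 4.90-fold (3.55 to 6.59), P4hb 4.23-fold (3.04 to 5.73) and Pdia3 4.12-fold (2.82 to 5.83). Xbp1, a factor known to be needed by secretory blood cells, had 6 UMIs and Atf4 7, at 137 against 109 CPM and 159 against 91.4, with intervals of the ratio including 1.

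Besides Mpo and Elane, 6 of the 7 other granulocyte markers were higher in these cells, at a summed 17755 against 1813 CPM, with Ltf at 0. LT-HSC markers summed to 433 against 2593 CPM, with 7 of 10 at 0 (Procr, Mecom, Hlf, Fgd5, Slamf1, Hoxb5 and Gata2). The 6 B and plasma cell markers had no UMI, and 5 of 6 basophil and mast markers were at 0. Erythroid markers were at 91.1 against 1683 CPM, with 6 of 7 at 0. Other lists were higher, the 3 T and NK markers at 478 against 65.5 CPM with Cd3e at 0, and the 5 macrophage markers at 774 against 548 with C1qa and C1qb at 0. Of all 25 S phase genes 21 were higher, at a summed 7034 against 3297 CPM. The 11 cells were deeper, with a median of 2713 against 1414 UMIs; the part of depth, cycling and cell doublets in the result was not tested. Of all 26 other ER import and glycosylation genes 17 were higher, at a summed 7239 against 3761 CPM. The 5 of them that reached 20 UMIs did so by being high, Spcs3 at 4.46-fold and Rpn1 at 3.54-fold among them. Of all 17 cytosolic and mitochondrial chaperones 10 were higher, at a summed 8081 against 6608 CPM. All 5 measured ones were higher, and 3 of these were expected to reach 20 UMIs. These were Hsp90aa1 at 1.42-fold (1.06 to 1.86), Hspa8 at 1.12 (0.88 to 1.41) and Hsp90ab1 at 1.05 (0.81 to 1.35). The chaperonin subunit Cct2 was past the size rule at 1.52-fold (1.03 to 2.18), but was measured only because it was high.

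Reporter cells had single ER genes past the size rule on both sides, a description limited by how these members were measured and listed. The 71 cells with a GFP UMI stood at 6364 CPM for the list and the 3331 others at 5686, 1.12-fold (1.05 to 1.20), with 7019 versus 5902 in the first aliquot and 6229 versus 5596 in the second. Of all 36 genes 21 were higher and 15 lower, with a median log2 ratio of 0.10. Past the size rule were 3 higher and 3 lower, where 15.6% of 1456 genes were past it (9.68% higher, 5.91% lower). 3 of the 17 measured members, Xbp1, Herpud1 and Ssr2, were expected at 14.2, 17.5 and 17.4 UMIs and were measured only because they were high. Without them 1 member was past the rule upward (Hspa5) and 3 downward (Serp1, Surf4 and Pdia3), with a median log2 ratio of 0.06. Of all 1150 genes expected at 20 UMIs or more, 10.5% were past the rule, with a median log2 ratio of -0.05. Serp1 and Surf4 were listed with their earlier results in reporter cells in view, so the downward count supports nothing. The counts over all 17 are likewise a description only. The mouse line, the sort and the cell source cannot be told apart in this split.

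Xbp1, the transcription factor spliced by Ern1, had the highest ratio among the measured members, where its high level is also what brought it over the minimum of UMIs. It stood at 298 versus 119 CPM in the first aliquot and 291 versus 97.9 in the second, 2.81-fold (1.99 to 3.87). The 40 UMIs came from 19 of the 71 cells with 9 in 1 of them, and the ratio was 2.21-fold without that cell. Levels in reporter cells were alike in the aliquots and lay above the others in each. Spliced and unspliced Xbp1 are not separated by these counts.

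Hspa5 stood at 936 versus 487 CPM in the first aliquot and 819 versus 466 in the second, 1.78-fold (1.46 to 2.14), from 115 UMIs in 35 cells. Herpud1 was at 1.55-fold (1.01 to 2.27) and at 1.33-fold without the 1 cell with most of its UMIs, with 425 versus 145 CPM in the first aliquot but 150 versus 120 in the second. Spcs2 was 1.47-fold higher (1.23 to 1.74), just under the size rule. On the other side stood Pdia3 at 0.54 times (0.29 to 0.91). It had no UMI in reporter cells of aliquot 1, so its direction there rests on the bound of 3 counts. The export receptor Surf4 and the translocon-associated Serp1 stood at 0.40 (0.18 to 0.77) and 0.30 (0.13 to 0.56). Serp1 and Surf4 had 9 UMIs each and were lower mainly in aliquot 2, at 44.1 against 210 and 44.1 against 158 CPM. In aliquot 1 they stood at 170 against 252 and 170 against 177.

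Not all BiP partners went with Hspa5. Manf was at 1.08 (0.73 to 1.53), Hsp90b1 at 1.01 (0.72 to 1.37), Calr at 0.85 (0.67 to 1.07) and Pdia6 at 0.86 (0.55 to 1.29). Sdf2l1 had 16 UMIs, at 117 against 85.0 CPM. Ddit3 had 6 UMIs, 43.8 against 15.0 CPM, or 2.92-fold (1.04 to 6.63). The Atf4 target Ppp1r15a was 2.16-fold higher (1.34 to 3.31), and the cytosolic chaperones Hsph1 and Dnaja1 2.15-fold (1.54 to 2.94) and 1.68-fold (1.31 to 2.14). Of these Ppp1r15a and Hsph1 were measured only because they were high.

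All 14 immediate early genes were higher in reporter cells, at a summed 4802 against 2941 CPM, and their part was not tested for all members. In the 15 reporter cells with no immediate early UMI, Hspa5 had a log2 ratio of 0.54 beside 0.83 in all, which is under the size rule. Granulocyte markers summed to 248 against 2179 CPM with 4 of 9 at 0, all 6 basophil and mast markers were at 0, and 4 of 6 B and plasma markers were at 0. Median depth was 1702 against 1412 UMIs. The median over measured members was 0.22 and turned to -0.14 without the deepest 5% of cells, whereas Xbp1 and Hspa5 then stood at 1.50 and 0.93.

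**Figure D5:**
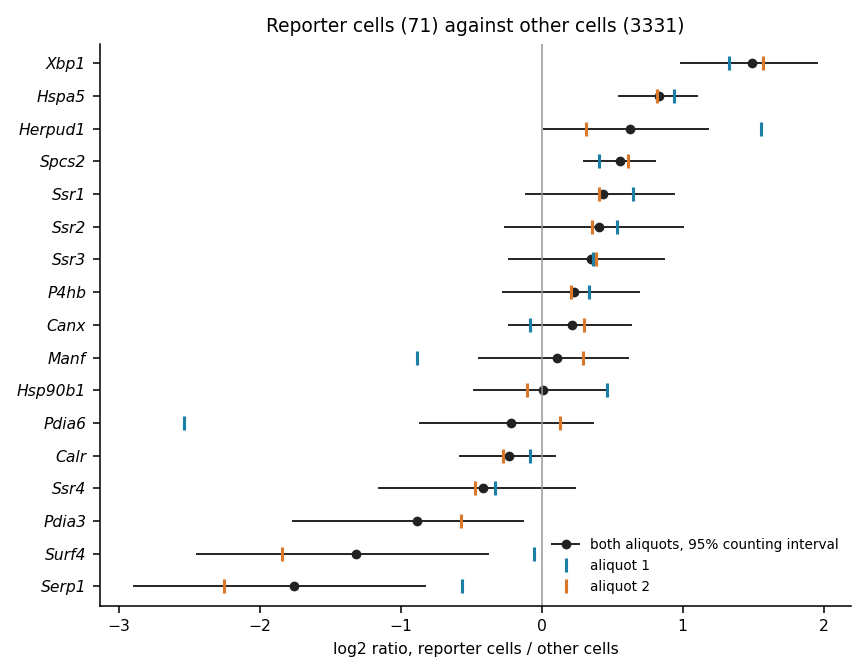
log2 ratio of CPM in the 71 reporter cells over the 3331 other cells for the 17 measured genes, with 95% counting intervals as bars and each aliquot as a tick (none drawn where an aliquot held no UMI). Xbp1 and Hspa5 lie right of 0 in both aliquots, and Serp1 and Surf4 lie left mainly by aliquot 2.

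To see which members vary together, cells were also split by 12 folding chaperones (Hspa5, Hsp90b1, Hyou1, Calr, Pdia3, Pdia4, Pdia6, P4hb, Dnajb11, Sdf2l1, Manf and Creld2), each gene being left out of the split used to read it. The 1121 cells with at least 2 thinned UMIs of the whole list and the 1198 with 0 had similar depth, with medians of 1471 and 1386.5 UMIs. Of 35 measured members 31 were higher, with a median log2 ratio of 0.29 beside -0.01 over all genes. Past the size rule were 7, all higher, where 10.5% of genes were past it (5.34% higher, 5.14% lower). They were Sdf2l1 at 3.77-fold (2.91 to 4.92), Creld2 at 2.14-fold, Hyou1 at 1.87-fold, Pdia6 at 1.85-fold, Edem1 at 1.82-fold, Manf at 1.75-fold and Hspa5 at 1.66-fold.

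Edem1 is the 1 of these 7 that is not itself in the splitting list, at 75.6 versus 30.7 CPM in the first aliquot and 78.0 versus 47.1 in the second. Its log2 ratio, 0.86 here, ran from 0.13 to 1.62 over other settings. Xbp1 was 1.253-fold higher (1.03 to 1.53), and Dnajb9 at 1.05 (0.84 to 1.32). Ern1 was at 0.72 (0.48 to 1.06) and Herpud1 at 0.82 (0.69 to 0.99), the one measured member with an interval under 1. Cycling moved with this split, 24 of 25 S phase genes being higher with a median log2 ratio of 0.72, and all 17 cytosolic and mitochondrial chaperones were higher; their part was not tested. Basophil and mast markers summed to 213 against 14.2 CPM, and LT-HSC markers to 2252 against 2831.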

How the data were processed

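The deposited files hold raw UMI counts per gene and droplet barcode, which the authors did not normalize. Per the submitters' processing notes, Bowtie 1.1.1, SAMtools 1.3.1, RSEM 1.3.0 and the build GRCm38 were used, with roles and settings not given in the sources used here. Counts were summed over cell sets and scaled to CPM without the genes of the split and without the GFP feature. Ratios have exact conditional binomial intervals and levels exact Poisson intervals (95%, counting error only). Cells were thinned to 500 UMIs (seed 1) to assign them to sets, other than the reporter set, and to give the list's UMIs per cell. Levels and ratios used all counts unless thinned counts are named. High cells lay at or above the 80th percentile and low cells at or below the 20th percentile of the S phase, G2/M, immediate early and chaperone lists. A gene was measured when its count in the smaller set, or the count expected there, reached 20 UMIs. A set at 0 was bounded by 3 counts. Doublets were not removed and no caller was run. The members and lists were chosen with earlier results of these data known. Named genes were all 36 members, and of other lists the 4 with most UMIs and those past the size rule with an interval without 1. The ratio step was tested on simulated data. All steps ran in Python 3.11.15 with pandas 2.3.3, scipy 1.17.1, matplotlib 3.10.9 and numpy 2.4.6. Positions come from RefSeq on GRCm38.p6.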

Additional observations from a re-analysis of the deposited data

Results flagged for a closer look

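Barcodes with under 200 UMIs, which entered no comparison, also held transcripts of the 36 genes, at 3562 CPM in 201 barcodes of aliquot 1 and 5044 CPM in 6291 barcodes of aliquot 2. In aliquot 2 Calr led there with 712 CPM, followed by Spcs2 at 582, P4hb at 384 and Hspa5 at 352.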

How the results depend on the processing

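No paired analysis was possible because both libraries are aliquots of 1 pool and no result comes from a test. Of 763 alternative values of single members past the size rule, 761 kept their direction. The exceptions were Atf6 in the S phase split in thinning draw 5 (0.0054) and Dnajb9 in the Procr split in draw 2 (-0.0021), both log2 ratios. Direction is a weak check here, since these members were picked as past the size rule, and sizes could change much. The log2 ratio of Pdia3 in the S phase split ran from 0.10 to 0.75. In the chaperone split Edem1 ran from 0.13 to 1.62 and Creld2 from 0.042 to 1.38.

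The median log2 ratio in the S phase split, 0.38, moved to 0.24 in draw 3 and 0.15 in cells with no G2/M UMI. The 10 members past the size rule became 6 with at least 50 UMIs per gene and 25 at a lower fold for the size rule, midway between 1 and 1.5. In the G2/M split the median kept within the aliquots' spread, but the 6 members became 2 without the 5% deepest cells, 3 in draws 2 and 6, and 15 at the lower fold.

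In the Procr split the median of -0.14 became -0.31 at 2 or more Procr UMIs without thinning. Leaving out 1 aliquot gave -0.19 to 0.063 for the median and 3 to 5 for the count. The 3 members became 8 with no minimum of UMIs, 0 at 50 UMIs, 5 in draws 3 and 6, 1 in cells with no G2/M UMI and 8 at the lower fold. In the granulocyte split, where 11 of the 14 measured members reached the minimum only by being high and the values are a description, the median of 1.86 became 1.30 with no minimum, and the count of 13 became 25, and 3 at 50 UMIs. Leaving out 1 aliquot gave counts of 4 to 13. Reading out thinned counts left no measured member there.

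In the reporter split, where 3 of 17 did so, the median of 0.22 became 0.15 at 1000 UMIs per cell, 0.60 at 2 or more reporter UMIs, 0.10 from thinned counts, 0.049 with equal weight per cell, 0.15 centred on all genes, 0.10 with no minimum, 0.56 at 50 UMIs, -0.14 without the 5% deepest cells, 0.51 in cells with no G2/M UMI, 0.16 without barcodes present in both libraries and 0.54 in cells with no immediate early UMI. Leaving out 1 aliquot gave 0.25 to 0.67. Several of these rest on under 8 members. The count of 6 became 3 at 2 or more reporter UMIs, 1 from thinned counts, 1 at 50 UMIs, 3 in cells with no G2/M UMI, 1 in cells with no immediate early UMI and 11 at the lower fold, and 1 to 5 with 1 aliquot left out.

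In the immediate early split the median of -0.16 became -0.18 at 1000 UMIs per cell, -0.24 at the 90th percentile, -0.11 from thinned counts, -0.18 with equal weight, -0.17 centred, -0.24 at 50 UMIs, -0.17 without the deepest cells, -0.24, -0.13 and -0.21 in draws 2, 4 and 6, -0.17 in cells with no G2/M UMI and -0.20 without shared barcodes. Leaving out 1 aliquot gave -0.22 to -0.15. The count of 4 became 9 at 1000 UMIs per cell, 2 at 50 UMIs, 2 in draw 6, 1 in cells with no G2/M UMI and 14 at the lower fold.

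The median in the chaperone split, 0.29, ran in other draws from 0.25 (draw 2) through 0.27 (3), 0.27 (4) and 0.27 (6) to 0.29 (5). It was 0.29 at 1000 UMIs per cell, 0.30 at 10% mitochondrial UMIs, 0.48 at the 90th percentile, 0.33 from thinned counts, 0.27 with equal weight, 0.30 centred, 0.26 with no minimum, 0.32 at 50 UMIs, 0.18 without the deepest cells, 0.26 without granulocyte-gene cells, 0.17 in cells with no G2/M UMI and 0.27 without shared barcodes. Leaving out 1 aliquot gave 0.27 to 0.34. The count of 7 became 11 at the 90th percentile and 18 at the lower fold. The list's share of 0.570% was 0.561 to 0.592% in single aliquots. The cause of these shifts was not tested. The settings that drop shared barcodes, read only cells with no immediate early or S phase UMI, or split granulocyte genes without thinning were chosen after seeing the data. Depth limits the sensors, Ddit3, Creld2 and Sec61g most, with under 160 UMIs each.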

Other observations

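Outside the ER list, the genes with the highest ratios in cells high in folding chaperones were mostly granule and cycling genes. The ranking covered 4011 genes with at least 50 UMIs and 1 direction in both aliquots. A gene could reach these 50 UMIs through its level in either cell set alone. Elane stood at 246 CPM in high and 1.58 in low cells (481 and 3 UMIs), and the basophil protease Prss34 at 151 and 1.05 (295 and 2 UMIs). Ctsg and Mpo, also of granulocyte precursors, followed with 223 and 2, and 212 and 11 UMIs. Ly6c2 was 5.36-fold, the cycling genes Gtse1, Mcm10 and E2f8 were 3.44-fold, 3.16-fold and 2.74-fold higher, and Fn1 was 3.60-fold.

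Of the 10 lowest ratios 4 were of genes of late neutrophils, S100a9 at 0.43 times (0.39 to 0.47), Lcn2 at 0.39 (0.31 to 0.50), Ngp at 0.38 (0.33 to 0.44) and Ltf at 0.36 (0.26 to 0.50). The other 6 were Gpatch1, Kazald1, Mad2l1bp, Insig2, Tmem101 and Neil1, between 0.37 and 0.41 times on 19 to 25 UMIs in high cells. Elane, Prss34, Ctsg and Mpo, with 2 to 11 UMIs in low cells, were ranked only because they were high. The same holds for Ly6c2, Fn1, Gtse1, Mcm10 and E2f8, and the 6 genes just named were ranked only through their level in low cells. The side of all these genes was fixed by the minimum and supports nothing. The 4 late neutrophil genes had at least 53 UMIs in high cells and lay on the low side. No contrast between early and late genes is drawn. UMIs of the genes named here can come from few cells, and the ratios have no replicate check. Mpo and Elane also define the granulocyte split, whose 11 cells held from 6 to 172 UMIs of the pair each. How many of those 11 cells were among the high cells here was not counted.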
